A study of Sus scrofa with 16 samples.

Results

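The 5 immune cell miRNAs listed in the small RNA count table of the sow ovary were ssc-miR-142-5p, ssc-miR-146a-5p, ssc-miR-146b, ssc-miR-150 and ssc-miR-155-5p. They were taken by name, as every entry for miR-142, miR-146a, miR-146b, miR-150, miR-155 or miR-223, among 1940 entries (216 known and 1724 predicted miRNAs). The names were chosen with earlier results of these data known. No row was named miR-223, and each of the other names had 1 row. The table held 1 small RNA library from the ovary of each of 16 Canadian Large White sows, so n was 4 different sows per group. The LH and LL groups were sows of high and low fecundity in the luteal phase (day 14 of the estrous cycle), and the FH and FL groups were sows of high and low fecundity in the follicular phase (day 20). No sow received a treatment that the labels name. In the study's records the low-fecundity sows were also of lower parity, and in the luteal phase the parities of the 2 groups did not overlap, so fecundity and parity cannot be told apart there.

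A miRNA guides the Argonaute protein to messenger RNAs that pair with its seed, the short stretch near its 5′ end, and lowers their translation and stability. miR-142 is made in almost all cells of the hematopoietic lineage and in few others, and miR-150 is abundant in mature lymphocytes, where it targets the transcription factor MYB. miR-155 is induced when lymphocytes and macrophages are activated, while miR-146a and miR-146b are induced by NF-kappaB and target the signaling proteins IRAK1 and TRAF6. Leukocytes enter the ovary around ovulation and populate the corpus luteum, the steroid-producing body that fills the ovary in the luteal phase. miR-146a and miR-146b have the same seed and differ only near the 3′ end, so the split of reads between the 2 entries is uncertain.

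Library totals ranged from 8998496 to 37194836 counts, and together the 5 miRNAs took 0.117 to 0.303% of a library. TMM factors, which rescale a library for the makeup of its miRNAs, ranged from 0.670 to 1.74 and were highest in LL (1.19 to 1.74). The sows LH4, FL2 and FL4 stood apart. In them ssc-miR-34c, a miRNA of ciliated epithelium, was at 7335 to 21379 CPM (TMM-normalized counts, scaled to a common library size), against 18.3 to 196 CPM in the other 13 libraries. The summed level of the 3 epithelial miRNAs examined (ssc-miR-34c, ssc-miR-429 and ssc-miR-205) was 7407 to 21535 CPM in those 3 libraries and 25.3 to 252 CPM in the rest. Several fold changes depended on these libraries, and the main ones are also given without them.

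ssc-miR-146a-5p had the highest count of the 5 in each of the 16 libraries, and its rank among the 216 known miRNAs ran from 34 to 69. ssc-miR-146b ranked 55 to 98, ssc-miR-155-5p 84 to 119, and ssc-miR-150 had a best rank of 95 and a median rank of 115. ssc-miR-142-5p ranked as high as 69 in 1 library and as low as 204 in others, because it was listed at 0 in 6 libraries.

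**Figure D1:**
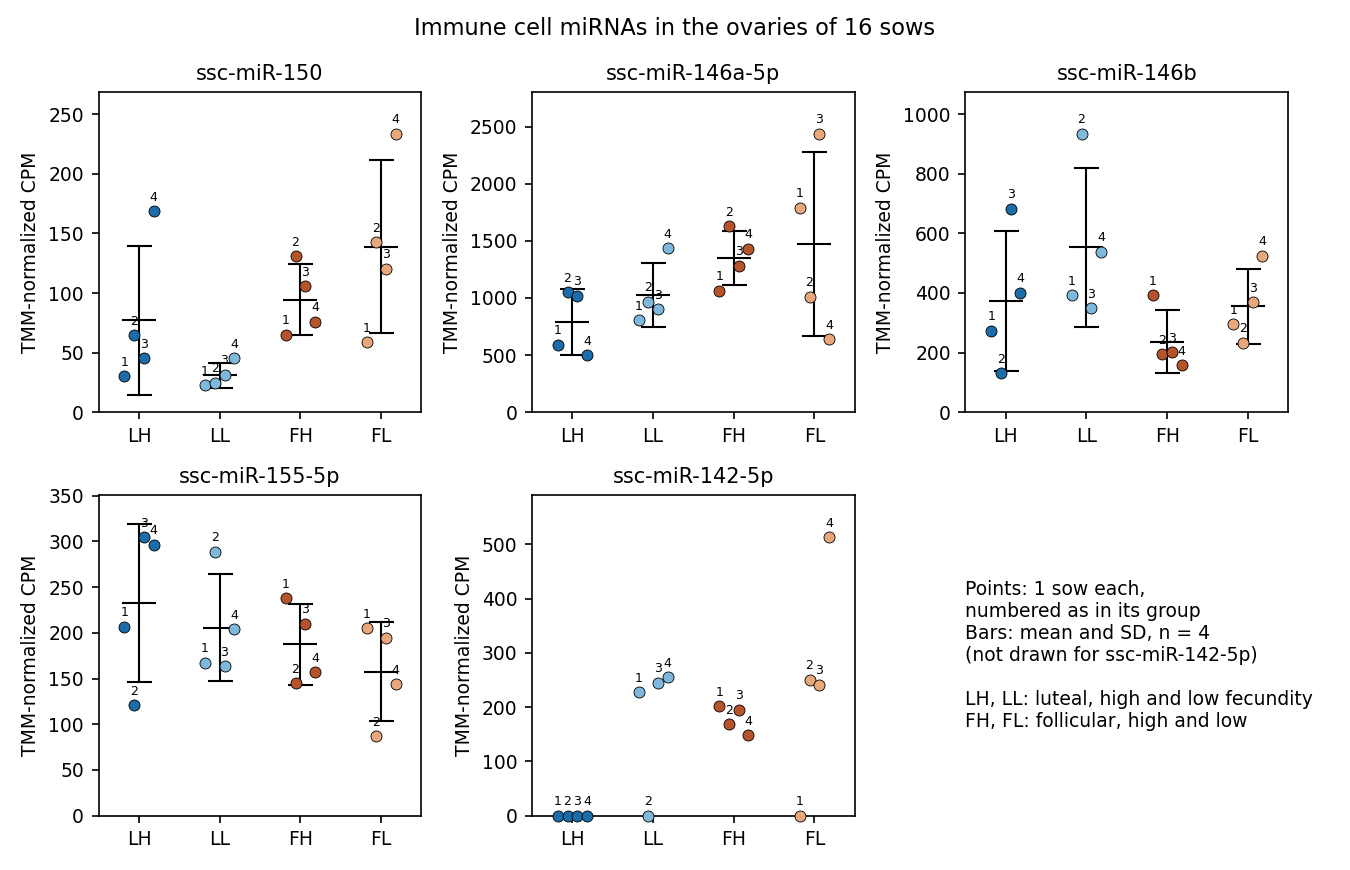
Levels of the 5 immune cell miRNAs in TMM-normalized CPM (vertical axes, linear from 0) by group, with 1 point per sow and bars for the mean and SD (n = 4), which are not drawn for ssc-miR-142-5p. ssc-miR-150 was at or below 45.2 CPM in the 4 LL sows and at or above 58.5 CPM in the 8 follicular sows, and ssc-miR-142-5p was either at 0 or above 140 CPM.

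Between the phases, the lymphocyte miRNA ssc-miR-150 was lower in the luteal sows, the only one of the 4 members without libraries at 0 to pass the test. Its level was 30.3, 64.5, 45.1 and 168.6 CPM in LH1 to LH4 and 22.4, 24.7, 31.4 and 45.2 CPM in LL1 to LL4. In the follicular phase it was 65.0, 130.7, 105.8 and 76.1 CPM in FH1 to FH4 and 58.5, 142.6, 120.6 and 233.7 CPM in FL1 to FL4. All but LH4 of the luteal sows (7 of 8) were below the follicular median, and LH4 was one of the 3 sows with high ssc-miR-34c. ssc-miR-150 fell in the luteal phase relative to the follicular phase, by 1.23 on the log2 scale (SE 0.384, edgeR adjusted p = 0.0377, 8 sows against 8). The exact two-sided permutation test of log2(CPM + 1) gave p = 0.00855. In bulk tissue, fewer cells of a type and less RNA per cell cannot be told apart. With the 3 sows left out the log2 fold change was -1.29 (SE 0.365, edgeR adjusted p = 0.0507). Scaling by library size only gave -0.89 (edgeR adjusted p = 0.144) and no filter on low counts gave -1.18 (adjusted p = 0.517), and both ended the call by either threshold. The share of reads that passed cleaning, taken as a covariate, gave -1.12 (adjusted p = 0.0820), which ended the adjusted call. Leaving out single sows gave -1.56 to -1.06, past the study's threshold each time, but the adjusted p rose above 0.05 without any 1 of 12 sows (up to 0.0910, without FH2).

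The same comparison was made within each fecundity group. In the sows of low fecundity, LL was at 30.9 ± 10.3 CPM (SD, n = 4) and FL at 139 ± 72.6 CPM (SD, n = 4), and the groups did not overlap. The log2 fold change of LL over FL was -2.00 (SE 0.442, edgeR P = 0.00193, adjusted p = 0.0187), and the exact two-sided permutation p was 0.0286, the smallest that 4 sows against 4 can give. Of all miRNAs tested between LL and FL, 29.5% did not overlap between the groups. Without FL2 and FL4 the log2 fold change was -1.51 (edgeR adjusted p = 0.114), and the adjusted p was 0.0608 without LL2 and 0.0548 without LL3. It was also above 0.05 by library size only (-1.75, adjusted p = 0.101), with no filter (-2.06, adjusted p = 0.232) and with a replicate block (-1.95, adjusted p = 0.147). In the sows of high fecundity, LH was at 77.1 ± 62.6 CPM and FH at 94.4 ± 29.7 CPM (SD, n = 4 each), the groups overlapped, and the log2 fold change was -0.32 (SE 0.565, edgeR adjusted p = 0.814). This value depended on LH4, without which it was -1.11 (SE 0.499, adjusted p = 0.356), and on the share of reads that passed cleaning, which as a covariate took it to -1.39 (adjusted p = 0.463). The difference between these 2 phase effects was tested as the interaction of fecundity and phase, which came to -1.87 on the log2 scale (SE 0.763, edgeR adjusted p = 0.277). It was past the study's threshold but not past the adjusted one, and it also lost the former without any 1 of LH4, LL1, LL2, FH1, FH4 or FL4 (-1.13 without LH4). Without LH4, FL2 and FL4 the interaction was -0.41 (SE 0.728, adjusted p = 1.00), under the study's threshold.

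**Figure D2:**
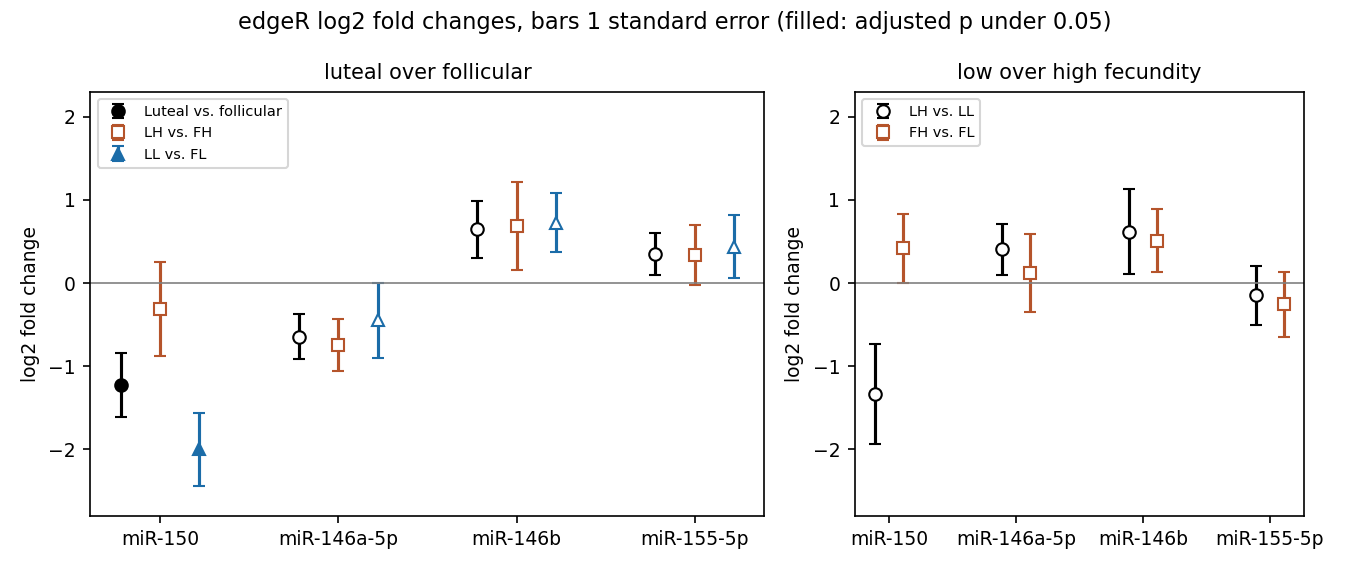
Log2 fold changes of 4 immune cell miRNAs (vertical axis) for luteal over follicular, over all sows and within each fecundity group, and for low over high fecundity within each phase. Bars are 1 SE, derived from the edgeR F statistic. ssc-miR-150 was at -1.23 over all sows and -2.00 in the low-fecundity sows, and these are the only filled symbols (adjusted p under 0.05). ssc-miR-142-5p is not drawn because its fold changes depend on libraries listed at 0.

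The study's threshold for a differentially expressed miRNA was P under 0.05 before adjustment, together with a fold change of at least 1 on the log2 scale in either direction. Between the luteal and follicular phases, 2 of the 5 immune cell miRNAs passed (ssc-miR-150 and ssc-miR-142-5p, both lower in the luteal phase), where 23.4% of the 445 miRNAs tested did. At an adjusted p under 0.05 the same 2 of 5 passed, against 17.5% of all tested. The calls of ssc-miR-142-5p here, between LH and FH and in the interaction came from its libraries at 0, described further on. They are no result about its level. Between LH and FH only ssc-miR-142-5p was called. It was at 0 in all 4 LH sows and passed the filter there only through FH. None of the other 4 members passed either threshold, against 12.4% and 0.929% of the 323 tested. Between LL and FL, 1 of 5 passed both, ssc-miR-150, against 29.8% and 17.7% of the 339 tested. For the interaction, 2 of 5 passed the study's threshold (ssc-miR-150 and ssc-miR-142-5p) against 13.3% of all tested, and 0 of the 5 passed at an adjusted p under 0.05 in edgeR, as did 0% of the 445. The median log2 fold change of luteal over follicular was -0.15 over the 4 members other than ssc-miR-142-5p and 0.17 over all tested. The phase comparisons share sows with each other and with the comparisons of fecundity.

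ssc-miR-146a-5p and ssc-miR-146b, the feedback inhibitors of Toll-like receptor signaling, had fold changes of opposite sign between the phases. ssc-miR-146a-5p was at 589, 1050.5, 1021 and 498 CPM in LH1 to LH4 and at 1064, 1626, 1284 and 1430 CPM in FH1 to FH4. Every LH sow was below every FH sow, with an exact two-sided permutation p = 0.0286, the smallest possible, and 11.8% of all miRNAs tested did not overlap between these groups. The log2 fold change was -0.75 (SE 0.314, edgeR adjusted p = 0.307), under the fold that the study required. In the sows of low fecundity ssc-miR-146a-5p overlapped, at 805, 967.5, 899.5 and 1436 CPM in LL1 to LL4 and 1791, 1009, 2437 and 639 CPM in FL1 to FL4. The log2 fold change of LL over FL was -0.45 (SE 0.453, edgeR adjusted p = 0.553), and without FL2 and FL4 it was -1.02 (SE 0.294, adjusted p = 0.0903), past the study's threshold. Over all sows the log2 fold change of luteal over follicular was -0.65 (SE 0.270, edgeR adjusted p = 0.117). Of the 8 luteal sows 7 were below the follicular median, and the exact two-sided permutation test gave p = 0.0427. Without LH4, FL2 and FL4 the log2 fold change was -0.85 (SE 0.257, edgeR adjusted p = 0.0613). Leaving out single sows gave -0.81 to -0.57. The edgeR adjusted p was under 0.05 in 1 of these 16 fits, without FL4 (-0.81, adjusted p = 0.0484). The share of reads that passed cleaning, as a covariate, gave -0.79 (edgeR adjusted p = 0.0403), and scaling by library size only gave -0.17 (adjusted p = 0.575).

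ssc-miR-146b was at 273, 131, 682 and 401 CPM in LH1 to LH4 and 392, 934, 348 and 538 CPM in LL1 to LL4. It was at 392, 195, 200.2 and 158 CPM in FH1 to FH4 and 295, 233, 369 and 525 CPM in FL1 to FL4. All luteal sows but LH2 (7 of 8) were above the follicular median. The log2 fold change of luteal over follicular was 0.65 (SE 0.343, edgeR adjusted p = 0.196, exact two-sided permutation p = 0.161) and passed neither test. Its values within the fecundity groups were 0.68 (SE 0.532) for LH over FH and 0.73 (SE 0.359) for LL over FL.

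The ratio of 2 miRNAs in a library needs no scaling between libraries, and 2 ratios were taken after the values had been seen, as a description. The count of ssc-miR-146b was 0.124 to 0.965 times that of ssc-miR-146a-5p in the luteal sows (median 0.476) and 0.111 to 0.821 times in the follicular sows (median 0.160). Again 7 of the 8 luteal sows were above the follicular median, but the ranges overlapped, with 6 of the 8 follicular sows inside the luteal range, of which FL4 (0.821) was the highest. The count of ssc-miR-150 was 0.0856 to 0.569 times that of ssc-miR-155-5p in the luteal sows (median 0.170) and 0.273 to 1.64 times in the follicular sows (median 0.562). Apart from LH2 and LH4, the luteal sows (6 of 8) were below the lowest follicular sow.

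**Figure D3:**
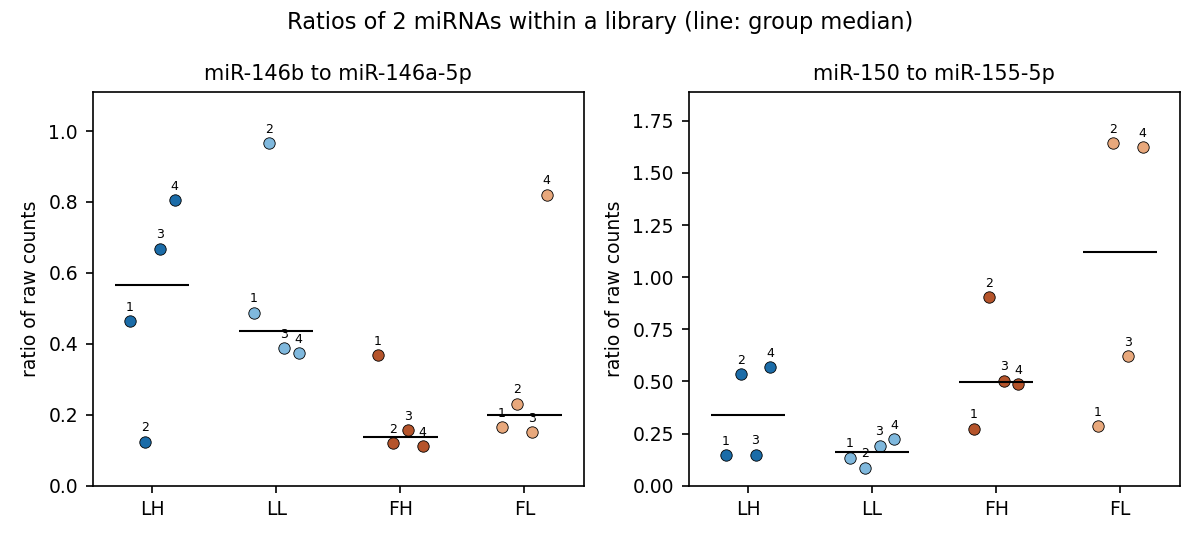
Ratio of the raw counts of ssc-miR-146b to ssc-miR-146a-5p (left) and of ssc-miR-150 to ssc-miR-155-5p (right) in each sow (points) by group, with lines at the group medians and linear vertical axes from 0. The first ratio had medians of 0.566 (LH) and 0.437 (LL) against 0.138 (FH) and 0.198 (FL), and the second had medians of 0.341 (LH) and 0.163 (LL) against 0.495 (FH) and 1.12 (FL).

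ssc-miR-155-5p, the miRNA of leukocyte activation, passed no test between the phases or the fecundity groups. It was at 207, 121, 305 and 297 CPM in LH1 to LH4, 167, 289, 163 and 204 CPM in LL1 to LL4, 238, 145, 210 and 157 CPM in FH1 to FH4 and 205, 86.8, 195 and 144 CPM in FL1 to FL4. All 4 groups overlapped. The log2 fold change of luteal over follicular was 0.35 (SE 0.254, edgeR adjusted p = 0.356, exact two-sided permutation p = 0.175), and without LH4, FL2 and FL4 it was 0.07 (SE 0.283). Its highest level was 3.51 times its lowest, the narrowest range of the 4 members without a 0. The range was 4.89-fold for ssc-miR-146a-5p, 7.15-fold for ssc-miR-146b and 10.4-fold for ssc-miR-150.

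Within the groups, ssc-miR-155-5p and ssc-miR-146b tended to be high or low in the same sows, with a higher r in the luteal sows. With log2(CPM + 1) centred within each group, Pearson's r was 0.796 over 16 sows (permutation p = 0.00207, adjusted p = 0.0124 over 6 pairs) and Spearman's rho was 0.818 (permutation p = 0.0018, adjusted p = 0.0108). Without LH2 and LH3, the sows farthest from the median of ssc-miR-146b, r was 0.689. It was 0.967 within the 8 luteal sows, 0.530 within the 8 follicular sows, and 0.623 without centring (permutation p = 0.00957). The difference in r between the phases was not tested. The other 5 pairs of the 4 miRNAs had r between -0.306 and 0.099, and none passed (adjusted permutation p = 0.898 for each, and 0.996 for rho). ssc-miR-142-5p was left out of these pairs because of its libraries at 0. Each pair shares the depth and the scaling of its libraries. Known miRNAs outside the 5 had centred r about as high. Among those picked as most alike from 195 candidates, ssc-miR-148b-5p and ssc-miR-340 had 0.831 and 0.822 with ssc-miR-155-5p. ssc-miR-183 had 0.785 with ssc-miR-146b. A high r was thus not particular to ssc-miR-146b and ssc-miR-155-5p.

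**Figure D4:**
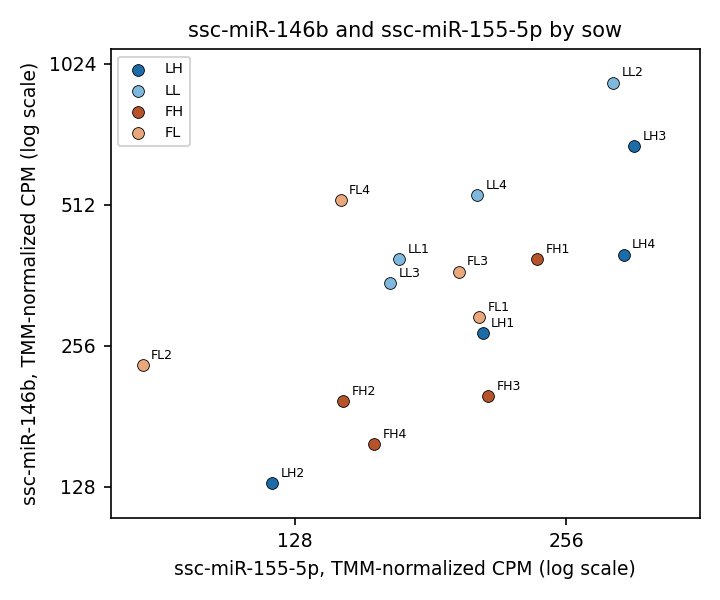
ssc-miR-146b against ssc-miR-155-5p in TMM-normalized CPM (both axes on a log scale), with 1 point per sow, colored by group. LL2 and LH3 were high in both miRNAs, LH2 was low in both, and FL4 lay above the other sows of its ssc-miR-155-5p level.

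ssc-miR-142-5p, the pan-hematopoietic miRNA, was listed at 0 in all 4 LH sows and in LL2 and FL1. In the other 10 sows it was at 1489 to 9079 counts, and no sow lay between. It was at 227, 245 and 256 CPM in LL1, LL3 and LL4, at 201, 168, 195 and 149 CPM in FH1 to FH4, and at 251, 241 and 513 CPM in FL2, FL3 and FL4. If the zeros are measured counts, each allows up to 3 reads, which is 0.135 to 0.188 CPM in those 6 libraries. Whether they are measured counts or values missing from the table cannot be told apart here, so no fold is given against them. The same 6 libraries had totals of 14172683 to 24892715 counts and at least 479 counts of every other member. Other known miRNAs had such zeros too. Of the known miRNAs, 16 were at 0 in at least 1 library and at 1000 or more counts in another, and 8 of them had no count between 0 and 1000 (ssc-miR-142-5p, ssc-miR-218-5p, ssc-miR-29c, ssc-miR-361-3p, ssc-miR-361-5p, ssc-miR-365-3p, ssc-miR-4334-5p and ssc-miR-99b). How reads were assigned to an arm or a name is not given in the sources used here, and its part in these zeros was not tested. No mean, SD or fitted fold change is therefore given for ssc-miR-142-5p.

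Between sows of high and low fecundity, no immune cell miRNA passed the study's threshold in either phase. Between LH and LL, 0 of the 4 tested passed it (ssc-miR-142-5p was removed by the filter), against 13.0% of the 362 miRNAs tested, and 0 of 4 passed at an adjusted p under 0.05, against 0.829%. None of the 4 was below 0.05 in edgeR before adjustment either, and in DESeq2 1 of 4, ssc-miR-150, passed the study's threshold. ssc-miR-150 was the member nearest to it, at 77.1 ± 62.6 CPM in LH and 30.9 ± 10.3 CPM in LL (SD, n = 4 each), with a log2 fold change of low over high of -1.34 (SE 0.606, edgeR adjusted p = 0.290). The groups overlapped, and the exact two-sided permutation p was 0.143. Without LH4 the log2 fold change was -0.60 (SE 0.455, edgeR adjusted p = 0.663). The other values of LL over LH were 0.41 (SE 0.310) for ssc-miR-146a-5p, 0.62 (SE 0.513) for ssc-miR-146b and -0.15 (SE 0.356) for ssc-miR-155-5p.

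Between FH and FL, 0 of 5 passed either threshold in edgeR, against 6.19% and 0.651% of the 307 tested, and none of the 5 was below 0.05 before adjustment. In DESeq2 none passed the study's threshold, and the share of all tested miRNAs that did is not given here. The log2 fold changes of FL over FH were 0.42 (SE 0.417) for ssc-miR-150, 0.12 (SE 0.465) for ssc-miR-146a-5p, 0.51 (SE 0.381) for ssc-miR-146b and -0.26 (SE 0.394) for ssc-miR-155-5p. All 4 were less than 2 SE from 0, and the groups overlapped for each. Without FL2 and FL4, ssc-miR-146a-5p was at 0.67 (SE 0.224, edgeR adjusted p = 0.983), below 0.05 before adjustment but under the fold of the study's threshold.

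Other miRNAs that leukocytes use gave a mixed picture. Of 6 names in a list of other leukocyte miRNAs, 4 were listed, all of the miR-181 family, which tunes T cell receptor signaling but is also made in many other tissues. In the luteal phase 1 of the 4 fell by the study's threshold and 3 by an adjusted p under 0.05, with none higher and a median log2 fold change of -0.90 (0.17 over all tested). By the same thresholds 23.4% and 17.5% of all tested miRNAs were called in either direction. ssc-miR-181c was at 35.8 ± 17.6 CPM in the luteal and 140 ± 50.0 CPM in the follicular sows (SD, n = 8 each), a log2 fold change of -2.01 (SE 0.297, edgeR adjusted p = 0.00222). ssc-miR-181a was at -0.98 (SE 0.214, adjusted p = 0.00785) and ssc-miR-181d-5p at -0.83 (SE 0.208, adjusted p = 0.0170).

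Of 6 names in a list of miRNAs induced by inflammatory signals, 5 were listed. In the luteal phase ssc-miR-21 rose by the study's threshold (log2 fold change 1.94, SE 0.371, edgeR adjusted p = 0.00295) and ssc-miR-187 fell (-1.08, SE 0.347, adjusted p = 0.0443), and the other 3 did not pass, so 2 of 5 passed against the 23.4% of all tested. ssc-miR-21, which is also made in many epithelial and stromal cells, was at 167753 ± 80415 CPM in the luteal and 44291 ± 20658 CPM in the follicular sows (SD, n = 8 each). Between LL and FL all 5 passed the study's threshold, 3 higher and 2 lower in LL, against 29.8% of all tested there. ssc-miR-132 and ssc-miR-212, transcribed together and induced by CREB, were higher, by 1.70 (SE 0.336, edgeR adjusted p = 0.0128) and 2.06 (SE 0.619, adjusted p = 0.0538) on the log2 scale. ssc-miR-21 was also higher, at 2.41 (adjusted p = 0.00174). Lower in LL were ssc-miR-9 (-1.63, adjusted p = 0.0732) and ssc-miR-187 (-1.64, adjusted p = 0.0570). The members of this list thus changed in both directions.

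Some markers of other cell types also differed between the phases, where 23.4% of all tested miRNAs passed the study's threshold and 17.5% the adjusted one, and their part in the values of the immune cell miRNAs was not tested. Of 5 smooth muscle and stromal miRNAs, 2 fell in the luteal phase by the study's threshold and 3 by adjusted p. The rows of the 2 arms of ssc-miR-143 held the same counts and were taken once. ssc-miR-199a-5p and ssc-miR-199b-5p held nearly the same values (means of 31230 and 31214 CPM in the luteal sows). Both were taken among the 5 and in the sum. The summed level of the 5 was 96678 to 279340 CPM in the luteal and 224021 to 531553 CPM in the follicular sows. ssc-miR-145-5p, a miRNA of contractile smooth muscle, was at -1.89 (SE 0.294, edgeR adjusted p = 0.00222). Of 4 granulosa and luteal cell miRNAs, 2 rose by the study's threshold and 1 by adjusted p, where 1 other, ssc-miR-378, fell. Their summed level was 1961 to 4626 CPM in the luteal and 1353 to 2387 CPM in the follicular sows, and ssc-miR-383 was near 0 throughout. Of the 3 epithelial miRNAs, 1, ssc-miR-205, fell by both thresholds. The endothelial ssc-miR-126-5p was at 7751 to 26360 CPM and 2461 to 11872 CPM and passed neither threshold (log2 fold change 0.87, SE 0.310, adjusted p = 0.0665). Of 3 erythroid names 2 were listed and none passed in any comparison, with a summed level of 36.4 to 186 CPM in the luteal and 32.1 to 128 CPM in the follicular sows.

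The known miRNAs outside the 5 whose log2(CPM + 1) ran most like a member over the 16 libraries were taken from 195 candidates, as a description. ssc-miR-150 ran most like ssc-miR-205 (r = 0.887), ssc-miR-10a-5p (r = 0.865) and ssc-miR-145-5p (r = 0.854). Centred within the groups, these 3 values were 0.780, 0.661 and 0.643. In the sows with high ssc-miR-34c, ssc-miR-150 was at 143 to 234 CPM, above its range of 22.4 to 131 CPM in the other 13, and ssc-miR-205 was at 29.5 to 144 CPM against 6.03 to 75.6 CPM. ssc-miR-146b ran most like ssc-miR-183 (r = 0.802), ssc-miR-1839-5p (r = 0.784) and ssc-miR-182 (r = 0.766). ssc-miR-155-5p ran most like ssc-miR-374b-5p (r = 0.785), ssc-miR-340 (r = 0.762) and ssc-miR-148b-5p (r = 0.732). ssc-miR-146a-5p ran most like ssc-miR-99b (r = 0.686), which was at 0 in 10 libraries, ssc-miR-708-5p (r = 0.650) and ssc-miR-140-5p (r = 0.646). For ssc-miR-142-5p they were ssc-miR-219 (r = 0.732), ssc-miR-4334-3p (r = 0.709) and ssc-miR-491 (r = 0.659), and these values turn on its 6 libraries at 0. Except where said, these values were not centred within the groups, so differences between the groups enter them. All of them share the depth and scaling of the libraries.

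**Figure D5:**
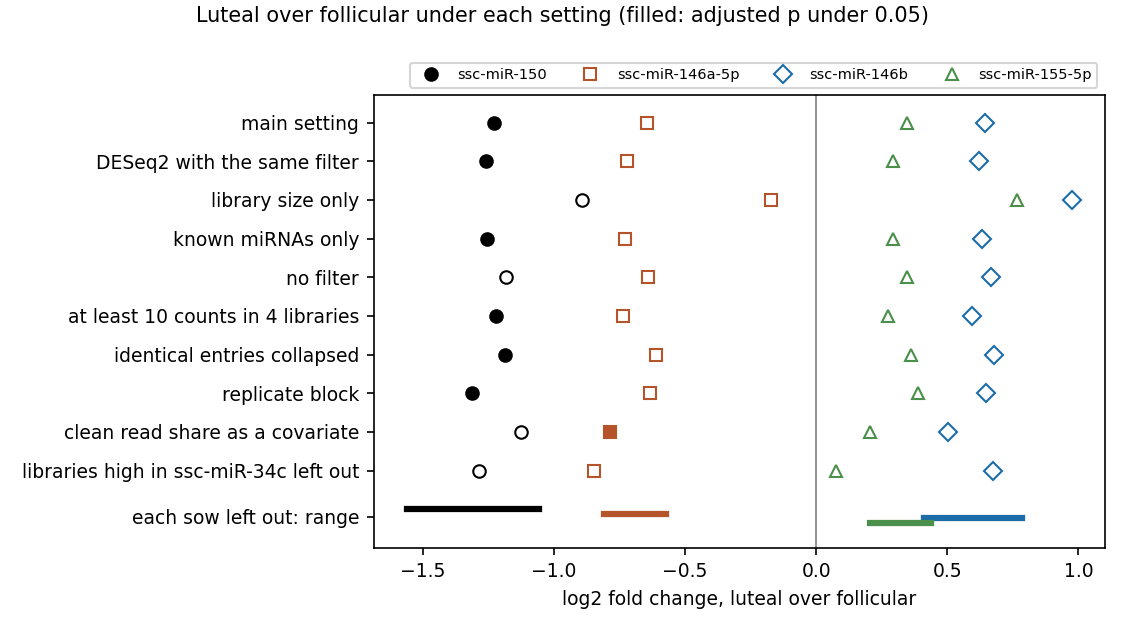
Log2 fold change of luteal over follicular (horizontal axis) for 4 immune cell miRNAs under each processing setting (rows), with the range over leaving out each sow in turn at the bottom. Each miRNA kept its sign in every row, and ssc-miR-150 ran from -1.56 to -0.89.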

How the data were processed

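Small RNA of 16 sow ovaries (4 sows per group) was analysed. The authors trimmed reads with Trimmomatic, mapped them to Sscrofa10.2 with Bowtie2 2.1.0, predicted further miRNAs with miRDeep and deposited raw counts per miRNA, without normalization. The rule that gave a read its miRNA or arm is not given in the sources used here.

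The counts were tested with edgeR 4.0.16 in R 4.3.3 (quasi-likelihood test, TMM normalization, filterByExpr with min.count 10 and min.total.count 15) over all miRNAs, with Benjamini-Hochberg adjustment over all tested. The test gives no SE, so the SE of a log2 fold change is its absolute value divided by the square root of the test's F statistic. Comparisons of 2 groups used those groups, and the phase and interaction contrasts used all 16 libraries. Exact two-sided permutation tests used log2(CPM + 1). Correlations used 100000 permutations within groups. Limits for a count of 0 are 3 counts and cover counting error only, since reads carried no molecular identifiers. The script was tested on simulated counts. All 5 members were named, with the 3 known miRNAs most like each member. Every listed miRNA was counted, and those whose own value is given were named. The members and lists were chosen with earlier results of these data known. Alternatives were DESeq2 1.42.0, other scalings and filters, identical entries collapsed, a replicate block, the clean read share as a covariate, leaving out each sow, and pseudocounts of 0.1 and 10. Leaving out the 3 libraries with ssc-miR-34c above 1000 CPM, and the 2 ratios, were chosen after seeing the data. Library totals were 8998496 to 37194836 counts.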

Additional observations from a re-analysis of the deposited data

Results flagged for a closer look

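The difference in ssc-miR-150 between low and high fecundity was -1.34 on the log2 scale in the luteal phase and 0.42 in the follicular phase. The test of the difference between the 2 effects, the interaction of fecundity and phase in edgeR, gave -1.87 (adjusted p = 0.277 over 445 miRNAs) and passed the study's threshold. Of the 4 LL sows 4 were below the LH median, and of the 4 FL sows 3 were above the FH median. The value rests on few sows: without LH4 it was -1.13 (edgeR adjusted p = 0.509), and without LH4, FL2 and FL4, the libraries high in ssc-miR-34c, it was -0.41 (adjusted p = 1.00). ssc-miR-142-5p was at 0 CPM in LL2 and at 227 to 256 CPM in the other 3 LL sows, a gap of 0.888 of the group's range, above Dixon's critical value for 4 samples. Whether that 0 is a measured count cannot be told apart from a value missing from the table. The other 4 members had no such sow in any group, and chance alone puts about 1 of 20 groups past this value.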

How the results depend on the processing

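Of 488 repeats of a log2 fold change of ssc-miR-150, ssc-miR-146a-5p, ssc-miR-146b or ssc-miR-155-5p, 431 kept their direction and their side of the study's threshold, 36 changed sign, 11 lost the call and 10 gained it, and the cause was not tested. Pseudocounts of 0.1 and 10 left all 40 permutation tests on the same side of 0.05. Scaling by library size only moved the median log2 fold change over all miRNAs from 0.17 to 0.56 for luteal over follicular, from 0.15 to 0.73 for LL over LH and from 0.22 to 0.61 for LL over FL. With it 1 immune cell miRNA passed the study's threshold between LH and LL, 3 between LL and FL, 1 between the phases and 1 in the interaction, against 0, 1, 2 and 2 with TMM. The 1 between LH and LL was ssc-miR-146b. Between the phases and in the interaction it was ssc-miR-142-5p, which has libraries at 0. With no filter 1 passed between LH and LL, 1 between the phases and 1 in the interaction, each time ssc-miR-142-5p. Between LH and LL, 1 passed with DESeq2, 1 with the known miRNAs only and 2 with all 16 libraries in 1 fit. ssc-miR-150 passed in each of these, and ssc-miR-142-5p was the other in the 1 fit. With the libraries high in ssc-miR-34c left out, 1 passed between LH and LL (ssc-miR-142-5p), 2 between LL and FL (ssc-miR-150 and ssc-miR-146a-5p) and 1 in the interaction (ssc-miR-142-5p). Without single sows, 0 to 2 passed between LH and LL, 1 to 2 between LH and FH (2 without LH3, where ssc-miR-146a-5p was at -1.06) and 1 to 2 in the interaction. Between LH and LL, ssc-miR-150 passed only without LH1 or without LH3, and the other calls were of ssc-miR-142-5p. Where 1 passed between LH and FH or in the interaction, it was ssc-miR-142-5p. The shares of all tested miRNAs that passed under these settings are not given here, so the counts are no result about the members.

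Sign changes were in values that had not passed the test. For LL over LH, ssc-miR-155-5p (-0.15) was 0.45 by library size only and 0.13 with the clean read share. For FL over FH, ssc-miR-150 (0.42) was -0.074 with the clean read share and -0.10 without the libraries high in ssc-miR-34c, ssc-miR-155-5p (-0.26) was 0.19 and 0.14 in the same settings, and ssc-miR-146a-5p (0.12) was -0.10 to 0.39 without single sows and 0.67 without FL2 and FL4. With the clean read share, ssc-miR-155-5p was -0.0071 for LH over FH, and by library size only ssc-miR-146a-5p was 0.17 for LL over FL. In the interaction, ssc-miR-146b (-0.016) was 0.068 with DESeq2, 0.35 by library size only, 0.13 with the known miRNAs, 0.14 with at least 10 counts in 4 libraries, 0.013 with identical entries collapsed, 0.096 without the libraries high in ssc-miR-34c and -0.37 to 0.43 without single sows. Without single sows ssc-miR-155-5p was -0.19 to 0.27 there and ssc-miR-146a-5p -0.053 to 0.46, and without the libraries high in ssc-miR-34c they were -0.16 and -0.39. Without centring, r was 0.073 for ssc-miR-146a-5p and ssc-miR-150, -0.13 for ssc-miR-146a-5p and ssc-miR-155-5p and -0.29 for ssc-miR-146b and ssc-miR-150.

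Sows of the same replicate number share only that number: their deviations from the group means had r of -0.190 to 0.373 over 24 pairs, 4 of them above 0.1, and 4 of the 16 libraries had their highest r with a library of their own number. A replicate block left the number of members past the study's threshold as it was in each of the 6 comparisons, gave ssc-miR-150 -1.31 (adjusted p = 0.0144) for luteal over follicular and -1.95 (adjusted p = 0.147) for LL over FL, and turned ssc-miR-146a-5p to -0.087 for FL over FH and ssc-miR-146b to 0.14 in the interaction. The precision of all values is limited by 4 sows per group.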
